A study of Mus musculus with 8 samples.

Results

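SOX9 CUT&Tag coverage in the uninjured mouse spinal cord is described here gene by gene. The libraries were chosen by their labels, which name an antibody (SOX9, or Control for nuclei given no SOX9 antibody) and a condition, and each stretch of coverage was assigned by the index of its library. This gave 2 SOX9 and 2 Control libraries of uninjured cords, 4 of the 8 libraries of the series. The other 4 come from cords collected 1 day after a contusion injury (1 d.p.i.), and their SOX9 libraries are used below only for comparison.

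The study asked which regulatory elements respond to spinal cord injury in each glial cell type, and SOX9 was profiled as a factor of the astrocyte lineage. In CUT&Tag, an antibody bound to chromatin guides a transposase, which inserts sequencing tags into the DNA around it. Each group held 1 library from a male (M) and 1 from a female (F) WT mouse, of the C57BL/6 strain that the methods name for wild-type animals, and the age of the animals behind these libraries was not given in the labels. A 5-mm segment of cord without meninges, at the level of the injury in the other group, gave 150000 nuclei per sample. The labels of these libraries name a sort on 7AAD, a DNA stain, and no marker of a cell type. The Control library is a secondary-only control made from 20% of the same nuclei, carried through every other step, so that a SOX9 library and the Control of the same sex share an animal. The animals of M and F differ, but with 1 library of each sex, the effect of sex and that of the single animal cannot be told apart.

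SOX9 is a transcription factor of the HMG-box family, which binds DNA at short sites close to ACAATG or ACAAAG. In the spinal cord it is needed for the switch of neural progenitors from making neurons to making glia, and in the adult it is found mainly in astrocytes and ependymal cells. In cartilage it drives collagen and matrix genes such as Col2a1 and Acan.

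The depth of the libraries was very uneven. Fragments numbered 1891276 in SOX9 M, 7216730 in SOX9 F, 22752 in Control M and 46846 in Control F. Around a transcription start site (TSS ±1 kb, 2000 bp) the mean was 6.78 (M) and 45.8 (F) fragment starts per gene in the SOX9 libraries and 0.119 (M) and 0.249 (F) in the Controls. Of 21938 protein-coding genes, 19633 (89.5%, M) and 17863 (81.4%, F) had no Control coverage in this window, against 15.2% (M) and 7.93% (F) without SOX9 coverage. The Controls therefore carry values for sums over many genes, and very little for a single gene.

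A further limit concerns where the Control fragments come from. Where a fragment stands alone its start and end can be read from the coverage, and 20482 of 21895 such fragments in Control M (93.5%) and 33184 of 40337 in Control F (82.3%) had the start and the end of a fragment in at least 1 of the 4 SOX9 libraries. After a shift of 10 bp the shares were 0.457% and 0.372%. The matches were spread over several libraries. Control M matched SOX9 M in 33.2% and SOX9 F in 32.7% of its lone fragments, and Control F matched SOX9 M in 16% and SOX9 F in 42.8%. The fragments of Control M without a match lay in TSS windows in 9.27% of cases (95% Wilson interval 7.87 to 10.9), and those with a match in 8.88% (8.50 to 9.28). In Control F the fragments without a match were in such windows less often, in 6.43% (5.89 to 7.02), than those with a match, in 9.50% (9.19 to 9.82). What gave identical fragments in libraries with different indexes was not tested, and the Controls are not read below as an independent background. Wilson intervals here and below cover counting error only.

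The sexes of the SOX9 libraries were checked on 4 genes of the Y chromosome (Ddx3y, Eif2s3y, Kdm5d and Uty). Their coverage was 0.432 times the autosomal mean in SOX9 M (89 fragment starts) and 0.00837 times in SOX9 F (9 fragment starts). At these genes the SOX9 libraries differed as their labels state, and 1 fragment start in each Control was too few for the same check. The X chromosome did not follow the labels, with 0.347 (M) and 0.276 (F) times the autosomal coverage, lower in F, and the reason was not tested.

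Coverage was divided by the mean of the library over chromosomes 1 to 19, X and Y, so that a value of 1 is the genome mean. On this scale the average TSS window had 4.78 (M) and 8.72 (F) in the SOX9 libraries and 6.95 (M) and 7.27 (F) in the Controls. TSS windows make up 1.52% of the genome and held 6.84% (M) and 12.3% (F) of SOX9 coverage, 9.79% (M) and 10.3% (F) of Control coverage. The means were 9.57% ± 3.85 (SD, n = 2) for SOX9 and 10.1% ± 0.386 (SD, n = 2) for Control. The difference of −0.492 percentage points was smaller than the spread between libraries (exact two-sided permutation test, p = 1, where 2 libraries against 2 cannot go below 0.333). SOX9 M lay below its Control and SOX9 F above, and without SOX9 M the difference was 2.23 percentage points. Gene spans, from the first to the last base of each gene, make up 38.2% of the genome and held 56.0% (M) and 63.5% (F) of SOX9 coverage against 60.9% (M) and 59.7% (F) of Control coverage.

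Coverage of all 4 libraries rose toward the start of genes. In 50-bp steps around 19168 starts whose windows hold little repeated sequence, the highest mean was 8.74 times the genome mean in SOX9 M, 20.7 times in SOX9 F and 16.6 times in each Control. The highest step lay within 100 bp before the start in each of these libraries. At 2 to 3 kb from the start the means were 1.96 (M) and 2.43 (F) for SOX9 and 2.1 (M) and 2.32 (F) for Control. The peak over that level was 4.47 and 8.51 in the SOX9 libraries and 7.94 and 7.18 in the Controls, so the Controls, most of whose lone fragments also stand in SOX9 libraries, lay between the SOX9 libraries. Whether the coverage marks SOX9 occupancy was not tested, and the values are given as the coverage of the SOX9 libraries.

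**Figure D1:**
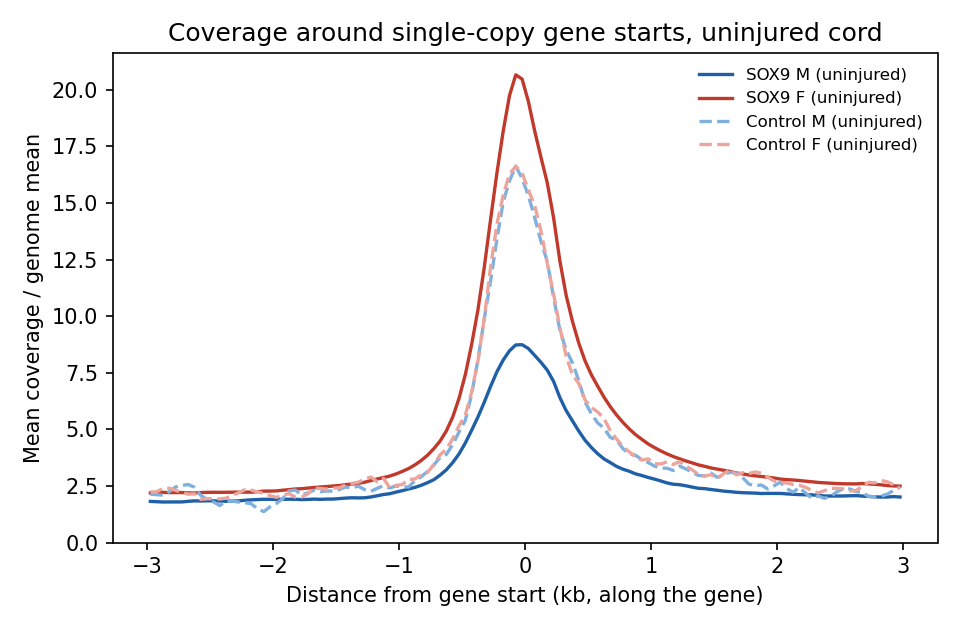
Mean coverage divided by the genome mean of each library (vertical axis) in 50-bp steps from 3 kb before to 3 kb after the transcription start site (horizontal axis), over 19168 protein-coding genes, with 1 line for each of the uninjured libraries. All 4 lines peak just before the start, SOX9 F at 20.7, both Controls at 16.6 and SOX9 M at 8.74.

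Which genes carried most coverage was asked first for TSS windows, ranked by the lower of the M and F values, so that a high rank needs both animals. Each TSS window lies at the first annotated start of its gene, and other starts were not ranked. Of the 21938 genes, 11790 (53.7%) had more than 2 times the genome mean in both SOX9 libraries. Among the 1000 highest windows of each library, 708 were shared, which is 70.8% of each list and 3.23% of all genes. Across the 21938 genes, the Spearman correlation between M and F was 0.882 for TSS windows and 0.903 for gene spans. Genes are not independent replicates, and these values share base composition, mappability and the openness of promoters in the same tissue.

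The highest windows of all belong to repeated sequence. Of the 20 highest, 11 (55.0%) are predicted genes of which at least 20% of the 31-base words occur elsewhere in the genome, a property of 2770 of all 21938 windows (12.6%). They lie in 3 places on GRCm38 (mm10). At chr2:98661237-98668300, which holds Gm10801 and Gm10800, coverage was 515 (M) and 254 (F) times the genome mean in the SOX9 libraries and 687 (M) and 705 (F) times in the Controls. At chr9:2999922-3037876, with 8 predicted genes from Gm10722 to Gm10715, it was 248 (M) and 116 (F) times in the SOX9 libraries and 60.9 (M) and 147 (F) times in the Controls. At chr14:19417930-19419929, around the start of Gm21738, it was 335 (M) and 169 (F) times against 174 (M) and 266 (F) times. Fragments of such copies cannot be placed with certainty, and the values describe the whole family of copies. The highest single window was that of Gm10800, at 1559 (M) and 789.6 (F) times in the SOX9 libraries and 2032 (M) and 2115 (F) times in the Controls. In each of these places M exceeded F in the SOX9 libraries, while the average TSS window was higher in F. The limit of 20% was set after these windows were seen.

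Among windows with little repeated sequence, the highest was the shared promoter of Rnf5, a ubiquitin ligase of the endoplasmic reticulum, and Agpat1, an enzyme of phospholipid synthesis. At Rnf5 coverage was 73.9 (M) and 153 (F) times the genome mean, from 102 and 792 fragment starts, and the Controls had 349.5 (M) and 50.5 (F) times from 5 and 3. Its window spans chr17:34602690-34604689. The next was the shared promoter of Usp5, a deubiquitinase that takes apart free ubiquitin chains, and Cdca3, a gene of mitotic entry. Usp5 had 68.5 (M) and 127 (F) times in the SOX9 libraries and 35.3 (M) and 45.7 (F) times in the Controls. Both pairs run in opposite directions from a common start region, and their fragments cannot be divided between the partners. Over TSS ±500 bp the lower of the M and F values was higher at 88 of 129 named genes and smaller at 27, with rises of more than 1.5 times at Rnf5 (to 112), Aldoc (to 35.0) and Olig2 (to 24.3) among others.

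The remaining places among the 20 were held by 5 genes. Cic, a repressor of growth factor target genes, had 61.6 (M) and 136 (F) times the genome mean in the SOX9 libraries and 226 (M) and 114 (F) times in the Controls. Sp1, a zinc finger factor of GC-rich promoters, had 59.9 (M) and 175 (F) times, and 111 (M) and 119 (F) times in the Controls. Rab40c, a small GTPase coupled to a ubiquitin ligase, reached 60.8 (M) and 161 (F) times, with 44.8 (M) and 192 (F) times in the Controls. Rap2a, another small GTPase, reached 58.9 (M) and 132 (F) times, with 138 (M) and 107 (F) times in the Controls. Izumo4, of a gene family known from sperm, reached 61.1 (M) and 110.3 (F) times, and 76.2 (M) and 68.0 (F) times in the Controls, in a window shared with Mob3a, a kinase adaptor. The Control values of these 5 genes rest on 1 to 7 fragment starts each, too few to give a level. With Rnf5, Agpat1, Usp5 and Cdca3, the 5 genes Cic, Sp1, Rab40c, Rap2a and Izumo4 make up the 9 of the 20 highest windows that are not of the predicted genes above.

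The next windows with little repeated sequence were added after the data were seen, because repeats took 11 places. They include Gsk3b, a kinase of WNT and insulin signalling, with 55.7 (M) and 160.4 (F) times the genome mean in the SOX9 libraries and 88.6 (M) and 270.3 (F) times in the Controls. Tarbp2, a partner of Dicer, had 57.5 (M) and 109.7 (F) times, and 28 (M) and 100.5 (F) times in the Controls. Leprot, a membrane protein gene that begins at the leptin receptor locus, had 58.4 (M) and 111 (F) times, and 164 (M) and 24.9 (F) times in the Controls. Dbp, a clock-controlled transcription factor, had 55.7 (M) and 82.2 (F) times, and no coverage in either Control. Zbtb20, a zinc finger repressor with roles in neural development and astrocyte formation, had 56.1 (M) and 152 (F) times, and 44.8 (M) and 139 (F) times in the Controls. Each Control value above 0 in these genes rests on 1 to 9 fragment starts. Zbtb20 was the highest of the 26 glial transcription factors described below.

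The shared 708 promoters differed from all promoters in several features. A second protein-coding gene began within 1 kb in the opposite direction at 155 of them (21.9%), against 1489 of all (6.79%). The 300 bp from 250 bp before to 50 bp after the start had a median GC content of 63.0%, against 55.0%, and an observed over expected CpG ratio of 0.821, against 0.525. Median gene spans were alike, at 17.5 and 17.4 kb. The highest point of coverage had a median position of −91.5 bp from the start (quartiles −205 and 78.5 bp, minus meaning before it), and over all 20843 windows with coverage the median was 8 bp. This position comes from the coverage that ranked the windows, and at low coverage it rests on few fragments. Genes on the X chromosome made up 0.989% of the shared list and 4.32% of all genes. Repeated windows made up 24 of the 708 (3.39%).

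**Figure D2:**
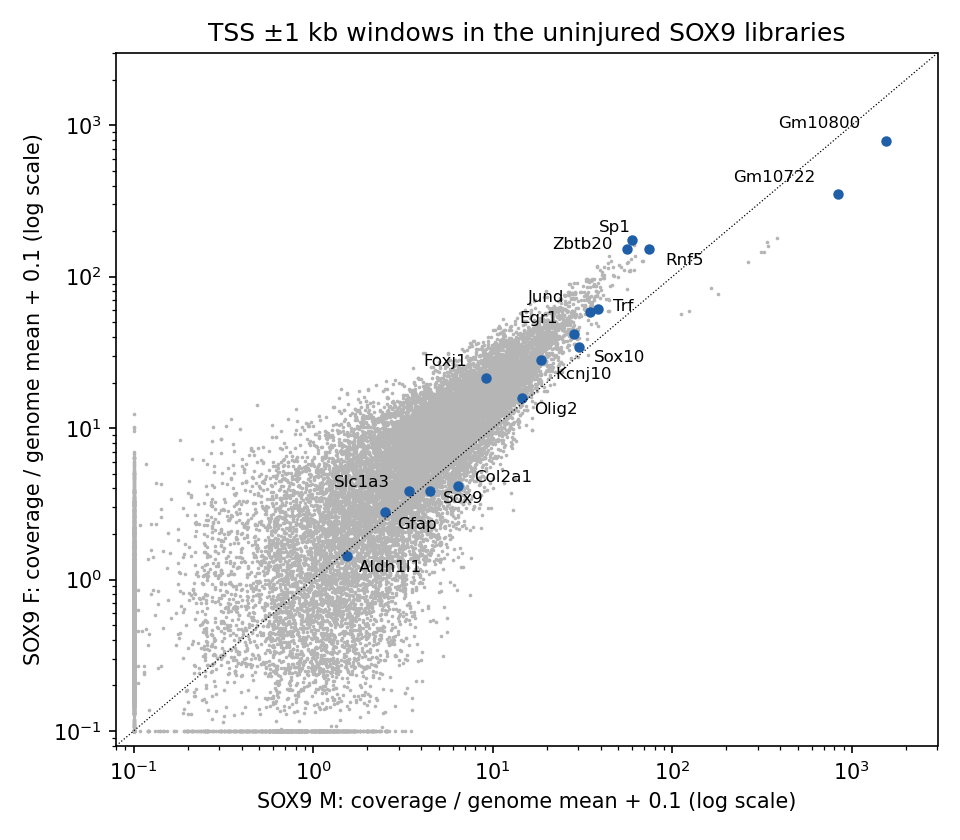
Coverage of each TSS ±1 kb window divided by the genome mean, with 0.1 added, in SOX9 M (horizontal axis, log scale) and SOX9 F (vertical axis, log scale), with 1 grey point for each of 21938 genes, blue points for named genes and a dotted line where both are equal. Rnf5 lies at 73.9 and 153, Sox9 at 4.40 and 3.77, and the repeat genes Gm10800 and Gm10722 lie below the line.

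The Sox9 gene itself, at chr11:112782224-112787760 on the plus strand, was not among the high windows. Its TSS window had 4.40 (M) and 3.77 (F) times the genome mean from 5 and 20 fragment starts, at rank 8670 of 21938, and no Control coverage. Over its gene span the values were 0.705 (M) and 1.41 (F). The SOX9 libraries of 1 d.p.i. had 9.45 (M) and 4.64 (F) times over the TSS window, both above the uninjured values, in libraries of other animals and with no test of the difference. The median of the lower value over all genes was 2.41, so that Sox9 lay above the middle of the genome but far from the top.

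Of the gene groups, the members of which were listed by known function, glial transcription factors were among those with more coverage. More than 2 times the genome mean in both SOX9 libraries was found at 19 of 26, against 53.7% of all genes, with a median of 4.60 (all genes, 2.41), medians here and below being over the lower of the M and F values. Sox10, the master factor of oligodendrocytes and a relative of SOX9, had 30.3 (M) and 34 (F) times in the SOX9 libraries, and 44.8 (M) and 0 (F) in the Controls. With Zbtb20 it was 1 of 2 members in the shared list of 708 (3.23% of all genes). Olig2, a factor of oligodendrocyte and motor neuron progenitors, had 14.5 (M) and 15.8 (F) times, and Nfia, which acts with SOX9 in glial development, 7.09 (M) and 18.2 (F) times. The lowest was Nfib, a relative of Nfia, with 0.141 (M) and 0.408 (F) times. This window lies at the first annotated start of a gene span of 416 kb, and later starts of Nfib were not described. Coverage at the first annotated starts varied widely among factors of the same lineage. For Nfib it does not give the level at any later start.

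Genes of astrocyte identity had 16 of 22 members above 2 times the genome mean in both SOX9 libraries (72.7%, against 53.7% of all genes), with a median of 3.67. Aldoc, a glycolytic enzyme, led with 20.6 (M) and 21.8 (F) times, followed by Kcnj10, the potassium channel Kir4.1, with 18.5 (M) and 27.9 (F) times. Slc1a2, the main glutamate transporter, had 14.2 (M) and 13.7 (F) times, and its lower value was 8.92 with SOX9 F thinned to the fragments of SOX9 M. The water channel gene Aqp4 had 0 (M) and 0.923 (F) times. In bulk nuclei, fewer cells of a type and less coverage per cell cannot be told apart. In this list 0 of the 22 were in the shared list of 708, which holds 3.23% of all genes, and 17 had no coverage in either Control, against 16433 of all 21938 genes. Mean coverage of the list was 6.67 (M) and 9.07 (F) in the SOX9 libraries and 7.61 (M) and 5.62 (F) in the Controls, which rests on 3 and 5 Control fragment starts.

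Reactive astrocyte genes, which rise after injury, had lower values in TSS windows. There 9 of 20 were above 2 times the genome mean in both SOX9 libraries (45.0%, against 53.7% of all genes). The median was 1.23 (all genes, 2.41). Over gene spans the list lay above all genes, with a median of 1.75 (all genes, 1.29). Of its spans, 8 of 20 were above 2 times in both, against 33.9% of all genes. Stat3, a signal transducer of reactivity, led with 14.9 (M) and 44.0 (F) times, and Lcn2, a secreted lipocalin, had 7.50 (M) and 7.44 (F) times. Timp1, an inhibitor of matrix proteases, had 0 (M) and 3.4 (F) times. Gfap and Vim, the intermediate filament genes most used to mark reactive astrocytes, had 2.40 (M) and 2.68 (F) times, and 2.16 (M) and 3.35 (F) times. Both depended on the setting. The lower of the 2 values at Gfap was 0.770 with SOX9 F thinned to the fragments of SOX9 M and 4.49 over TSS ±500 bp, and at Vim it was 2.16 and 3.38.

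Direct targets of SOX9 in cartilage were included as a list because they are known from another tissue. Of 16 genes, 9 were above 2 times the genome mean in both SOX9 libraries (56.3%, near the 53.7% of all genes), with a median of 2.25. Col11a2, a fibrillar collagen gene, had 12.6 (M) and 28.2 (F) times, and Col9a3 had 6.63 (M) and 8.71 (F) times, with a lower value of 2.17 over TSS ±500 bp. Col2a1, the main collagen of cartilage, had 6.29 (M) and 4.02 (F) times (2.51 in F with SOX9 F thinned), Acan, its main proteoglycan, 3.43 (M) and 2.05 (F) times, and Matn4, a matrix adaptor, 0.301 (M) and 4.23 (F) times. By the share and median of its TSS windows the list thus lay near the level of all genes. Its mean was lower, at 3.34 (M) and 4.75 (F) in the SOX9 libraries, against 4.78 (M) and 8.72 (F) for all genes. Over gene spans its median was higher, at 1.83 against 1.29. Of its spans, 7 of 16 were above 2 times in both, against 33.9% of all genes.

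Ependymal and motile cilia genes had 9 of 20 above 2 times the genome mean in both SOX9 libraries (45.0%, against 53.7% of all genes), with a median of 1.6, and Dnai1 and Dnai2 of that list were not matched to a gene name. Foxj1, the factor that switches on motile cilia, had 9.08 (M) and 21.3 (F) times. Dnah9, a dynein of cilia, had 5.84 (M) and 9.45 (F) times, and Ccdc39, a cilia assembly gene, 0 (M) and 2.3 (F) times. In Notch and Hedgehog signalling, 15 of 20 genes were above 2 times in both (75.0%), with a median of 3.48. Hey1, a Notch target, had 13.2 (M) and 21.2 (F) times, Sufu, an inhibitor of Hedgehog signalling, 11.6 (M) and 20.0 (F) times, and Rbpj, the DNA-binding partner of Notch, 0.884 (M) and 1.06 (F) times.

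The lists of oligodendrocytes and neurons stood at a similar level or above. Among myelin and oligodendrocyte genes, 16 of 20 were above 2 times the genome mean in both SOX9 libraries (80.0%, against 53.7% of all genes), with a median of 5.42, and 3 were in the shared list of 708, which holds 3.23% of all. Trf, the transferrin gene used by oligodendrocytes for iron transport, had 38.5 (M) and 61.4 (F) times in the SOX9 libraries and 146 (M) and 76.6 (F) times in the Controls. Cnp, a myelin enzyme, had 20.9 (M) and 35.6 (F) times, and Aspa, which breaks down N-acetylaspartate, 0 (M) and 0.462 (F) times. Neuronal and synaptic genes had 23 of 29 above 2 times in both (79.3%), with a median of 3.71. Tubb3, a neuronal tubulin, had 20.5 (M) and 23.6 (F) times, Camk2a, a synaptic kinase, 19.6 (M) and 45.4 (F) times, and Gad1, which makes GABA, 0 (M) and 0.482 (F) times. Mean coverage of the myelin list was 8.72 (M) and 14.1 (F) in the SOX9 libraries. In the Controls it was higher, at 17.3 (M) and 22.6 (F), on 6 and 14 fragment starts. For the neuronal list it was 5.64 (M) and 10.3 (F) in the SOX9 libraries. Its Control means were 6.16 (M) and 9.76 (F), on 3 and 7 fragment starts.

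In the TSS windows of progenitor, immune and vascular lists the shares were below the 53.7% of all genes. Oligodendrocyte progenitor genes had 5 of 12 above 2 times the genome mean in both SOX9 libraries (median 1.68), microglia and macrophage genes 6 of 20 (median 1.23), endothelial and mural genes 5 of 20 (median 0.698) and fibroblast and meningeal genes 1 of 10 (median 0.245). Gpr17, a receptor of maturing oligodendrocyte progenitors, had 13 (M) and 10.9 (F) times, while Pdgfra, the growth factor receptor that marks these cells, had 0 (M) and 0.393 (F) times. Sall1, a factor of microglial identity, had 12.4 (M) and 16 (F) times, and P2ry13, a purine receptor, 0 (M) and 1.71 (F) times. Slc2a1, the glucose transporter of the blood-brain barrier, had 12.6 (M) and 16.7 (F) times, and Kcnj8, a channel of pericytes, 0 (M) and 0.811 (F) times. In the fibroblast list Igf2, a growth factor of the meninges, had 4.50 (M) and 2.24 (F) times, and Ogn, a matrix proteoglycan, 1.58 (M) and 0 (F) times. Igf2 is the 1 of 10 above, and with SOX9 F thinned its lower value was 1.67, below the limit. Over gene spans the medians of the progenitor (1.69) and microglia (1.62) lists were above that of all genes (1.29). Those of the endothelial and mural (0.741) and fibroblast and meningeal (0.358) lists were below it. In this order, 6 of 12, 7 of 20, 5 of 20 and 2 of 10 spans were above 2 times in both, against 33.9% of all genes.

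Defining markers of each cell type were then taken alone. Of 5 astrocyte markers, 2 were above 2 times the genome mean in both SOX9 libraries, where 53.7% of all genes were, and their summed coverage was 7.15 (M) and 10.6 (F) in the SOX9 libraries and 0 in both Controls. The highest was Slc1a3, a glutamate transporter, with 3.32 (M) and 3.75 (F) times, and Aqp4 and the gap junction gene Gja1 were at 0 in M. Gfap, the other of the 2, had a lower value of 0.770 with SOX9 F thinned to the fragments of SOX9 M, which leaves 1 of 5. Of 4 oligodendrocyte markers, 4 were above 2 times in both, with sums of 28.4 (M) and 41.1 (F), 0 (M) and 106 (F) in the Controls, and a highest lower value of 12 at Mog, a myelin surface protein. Of 3 neuron markers, 3 were above 2 times, with sums of 17.5 (M) and 29.3 (F), and 105 (M) and 0 (F) in the Controls, the highest lower value being 7.13 at Snap25, a synaptic fusion protein. Of 4 microglia markers, 0 were above 2 times in both, with sums of 6.31 (M) and 8.19 (F), 0 in both Controls, 1.62 at Tmem119 as the highest lower value and none at 0. Of 3 ependymal markers 1 was above 2 times (Foxj1), with sums of 11.6 (M) and 21.9 (F) and 0 in both Controls. Of 2 oligodendrocyte progenitor markers 1 was above 2 times (Cspg4), with sums of 4.57 (M) and 3.78 (F), and 0 (M) and 26 (F) in the Controls. Endothelial markers (1 of 3 above, sums 3.54 and 6.95), mural markers (1 of 2, 2.74 and 3.34) and fibroblast markers (0 of 2, 1.36 and 4.08) had 0 in both Controls. The sums are over lists of different length and were not tested against each other. The Controls had a mean of only 0.119 (M) and 0.249 (F) fragment starts per window. A Control sum of 0 over a few markers therefore does not show a low level. Control sums above 0 rest on few fragments, each worth 56.3 (M) or 28.3 (F) times the genome mean in a window. The Control sums are not set against those of the SOX9 libraries.

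By the share above 2 times and the median of TSS windows, genes used in nearly all cells stood higher than the lists of cell types. Over gene spans the median of the myelin list (3.82) was above that of ubiquitous genes (3.17). By the mean of TSS windows in SOX9 M, the myelin list (8.72) and glial transcription factors (8.88) were above ribosomal protein genes (8.24). Of 26 ubiquitous genes, 23 were above 2 times the genome mean in both SOX9 libraries (88.5%, against 53.7% of all genes), with a median of 7.29 and 6 in the shared list of 708 (3.23% of all genes). Polr2a, the largest subunit of RNA polymerase II, had 28.0 (M) and 46.1 (F) times, and Emc7, of a membrane insertion complex, the lowest values of 1.14 (M) and 4.47 (F) times. Of 82 cytosolic ribosomal protein genes, 77 were above 2 times in both (93.9%), with a median of 7.29. Of 67 replication-dependent histone genes, 59 were above (88.1%), with a median of 7.28, although 40 of their windows hold repeated sequence. Immediate early and AP-1 genes, which respond to stimuli within minutes, had 16 of 20 above 2 times and a median of 7.90. Over TSS ±500 bp their median of 8.11 was below those of histone (11.5), ubiquitous (11) and ribosomal protein genes (10.5). Jund, a subunit of AP-1, had 34.8 (M) and 58.3 (F) times, Egr1, a zinc finger factor, 28.2 (M) and 41.9 (F) times, and Egr2, a relative of Egr1, 0.256 (M) and 3.92 (F) times.

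Genes known from other tissues also had low values. Of 30 such genes, 6 were above 2 times the genome mean in both SOX9 libraries (20.0%, against 53.7% of all genes). Their median was 0.305, and it was 0 over TSS ±500 bp and 0 with SOX9 F thinned to the fragments of SOX9 M. The fibroblast and meningeal list above had a lower median, 0.245, in the main setting. Apoa1, a lipoprotein of liver, had 4.69 (M) and 8.04 (F) times, and Ins2, an insulin gene, 0 (M) and 0.613 (F) times. The Ins2 window lies at the first annotated start of a span of 64.7 kb, and later starts of this gene were not described. Of 1420 olfactory and vomeronasal receptor genes, 2 were above 2 times in both (0.141%), with a median of 0. The second of them, Olfr9, had a lower value of 2.07, and 1.95 over TSS ±500 bp. The higher, Vmn1r4, had 12.4 (M) and 20.3 (F) times in a window it shares with Nt5c3, an enzyme of nucleotide breakdown. Zfp genes, a family of zinc finger factors, had 243 of 365 TSS windows above 2 times (66.6%), with a median of 3.61. Over gene spans this list lay below all genes, with a median of 1.21 (all genes, 1.29). Of its spans, 102 of 365 were above 2 times in both, against 33.9% of all genes. Hox genes, which set position along the body axis, had 28 of 39, with a median of 3.87. Within that family Hoxa6 had 7.99 (M) and 9.44 (F) times and Hoxd13, which acts at the tail end of the body, 0 (M) and 1.09 (F) times.

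**Figure D3:**
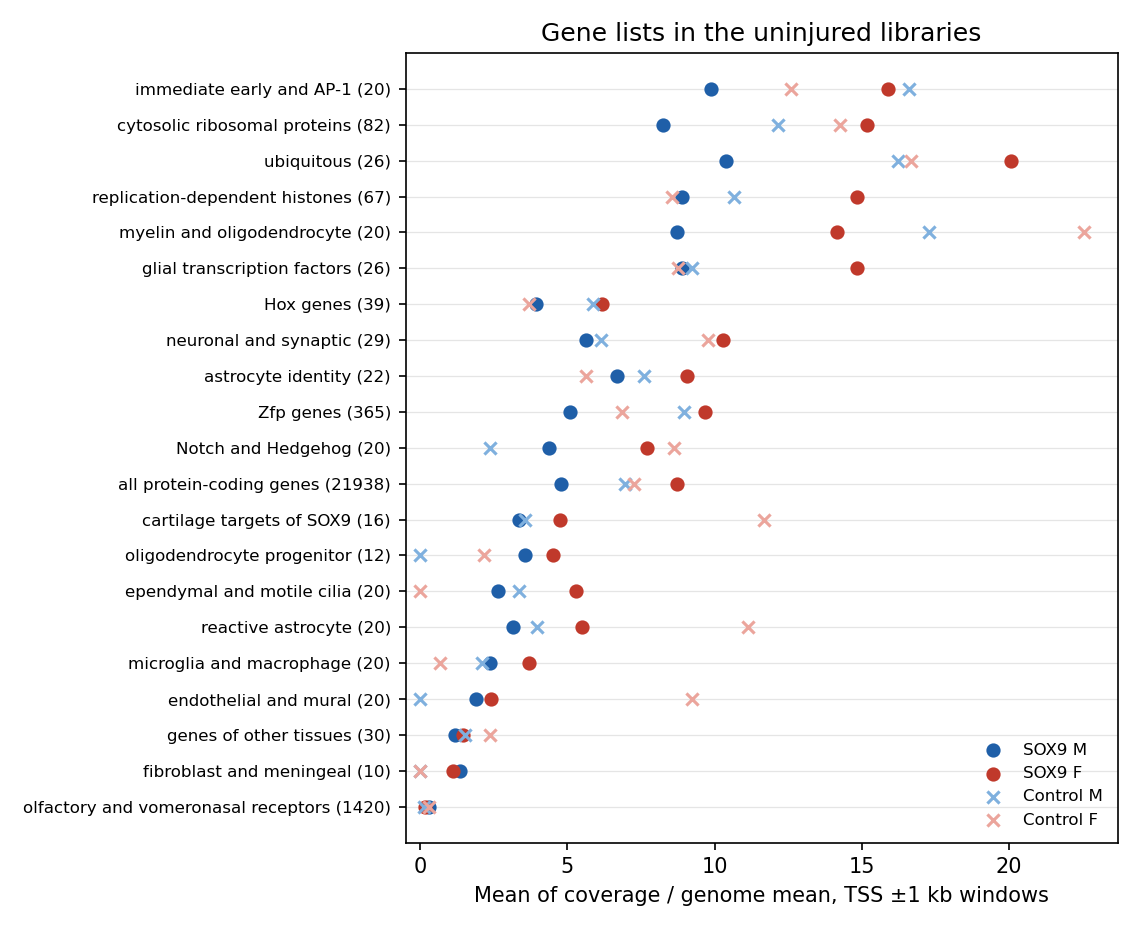
Mean of coverage divided by the genome mean over the TSS ±1 kb windows of each of 20 gene lists and of all protein-coding genes (horizontal axis), with 1 point for each of the 4 uninjured libraries. The ubiquitous list averages 10.4 (SOX9 M), 20.1 (SOX9 F), 16.2 (Control M) and 16.7 (Control F), and the olfactory and vomeronasal receptors average 0.296, 0.171, 0.118 and 0.301.

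The distance between widely used genes and receptors of smell was also seen in the Controls, on few fragments. Mean coverage of ubiquitous genes was 10.4 (M) and 20.1 (F) in the SOX9 libraries and 16.2 (M) and 16.7 (F) in the Controls. For ribosomal protein genes it was 8.24 (M) and 15.2 (F) against 12.2 (M) and 14.2 (F). For olfactory and vomeronasal receptors it was 0.296 (M) and 0.171 (F) against 0.118 (M) and 0.301 (F). In the first 2 of these lists both Controls lay between the SOX9 libraries, and in the third 1 Control lay to each side of them. These Control values rest on 8 (M) and 17 (F) fragment starts for ubiquitous genes, 14 (M) and 36 (F) for ribosomal protein genes and 3 (M) and 24 (F) for the receptors.

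Genes were also grouped by their rank in the SOX9 libraries at 1 d.p.i., which the uninjured values did not enter. The 1000 highest of these had 25.6 (M) and 48.2 (F) times the genome mean in the uninjured SOX9 libraries and 39.5 (M) and 41.1 (F) times in the uninjured Controls. The next 4000 genes had 9.30 (M) and 18.8 (F) times against 14.1 (M) and 14.9 (F) times. The last 6938 genes had 0.736 (M) and 0.707 (F) times against 0.712 (M) and 0.814 (F) times. The SOX9 libraries at 1 d.p.i. (M and F) held 18.1% and 15.2% of the lone fragments of Control M and 14.5% and 13.1% of those of Control F, so the grouping is not independent of the Controls and nothing is drawn from their values here.

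Gene spans gave another set of leading genes. In both SOX9 libraries 7430 of 21938 spans (33.9%) had more than 2 times the genome mean, and 719 (3.28%) were among the 1000 highest of both. Of the 708 promoters and the 719 spans 196 genes were in common, 27.7% of the first and 27.3% of the second list. The 10 highest spans were all predicted genes with repeated sequence at their start, led by Gm10800 with 3798 (M) and 1983 (F) times. In the Controls the Gm10800 span had 5133 (M) and 4935 (F) times. Among genes without it, a choice made after the data were seen, short genes led. A730061H03Rik, of 0.465 kb, had 43.5 (M) and 75.5 (F) times, and Fkbp2, a prolyl isomerase of the endoplasmic reticulum, 32 (M) and 93.0 (F) times. In such short genes the span is mostly promoter.

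Long genes with coverage beyond their promoter were therefore ranked apart, among genes of at least 10 kb after removal of the TSS window. Mapk8ip1, a scaffold of JNK signalling, led with 14.2 (M) and 19.6 (F) times the genome mean. Over its whole span the Controls had 26.0 (M) and 27.1 (F) times, above the SOX9 libraries with 13.8 (M) and 19.2 (F) times. Whole-span Control values went both ways among these genes. At Frmd8, Abca2 and Tmbim1, named below, both Controls lay under both SOX9 libraries. Frmd8, a cofactor of membrane protein shedding, had 13.5 (M) and 17.5 (F) times, Midn, a nuclear protein of protein turnover, 13.4 (M) and 19.4 (F) times, and Aatk, a kinase of neurons, 12.5 (M) and 18.1 (F) times. Brd2, a reader of acetylated histones, had 12.4 (M) and 22.8 (F) times, Kdm6b, a histone demethylase, 11.8 (M) and 16.8 (F) times, and Abca2, a lipid transporter of oligodendrocytes, 11.4 (M) and 17.5 (F) times. In Tmbim1, a membrane protein gene of the same 10, the rest of the span had 11.5 (M) and 16.6 (F) times and the TSS window 2.81 (M) and 5.52 (F) times. The TSS windows of Mapk8ip1, with 9.65 (M) and 14.1 (F) times, and Frmd8, with 8.26 (M) and 17.3 (F) times, were also below the rest of the span, at Frmd8 hardly so in F. The long gene Mbp, a myelin protein chosen after its values were seen, also had more over the rest of its span, 6.31 (M) and 9.41 (F) times, than over its TSS window, 4.13 (M) and 6.25 (F) times.

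The comparison with Control was made for each gene with limma on log2 of the coverage ratio plus 0.5, over genes with a mean of at least 1, with Benjamini-Hochberg adjustment. SOX9 coverage was above Control at 8283 of 14114 TSS windows tested (58.7%) and below at 15 (0.106%). Of the 8283, 8278 (99.9%) had no coverage in either Control, and of the 875 windows with coverage in both Controls 0 were above. One fragment in a window is worth 56.3 times the genome mean in Control M and 28.3 times in Control F, so that a window without a Control fragment may still have had a high level. With each SOX9 library thinned to the fragments of its own Control, limma gave 0 windows above and 0 below, with 67 and 56 at an unadjusted p under 0.05. The count thus follows the windows without a Control fragment, and it is not read for any single gene. With the nuclei sample as a block, the windows below numbered 176.

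Over gene spans limma with the same adjustment gave 2383 of 12588 above Control (18.9%) and 8 below (0.0636%). Of the 2383, 2364 (99.2%) had no coverage in either Control. With the nuclei sample as a block limma gave 0 above and 0 below, where 2610 and 18 had an unadjusted p under 0.05. With the SOX9 libraries thinned to their Controls it also gave 0 above and 0 below, with 307 and 281 unadjusted. The p-values measure only the spread between these samples. At the 2364 spans without coverage in either Control, that spread came from the SOX9 libraries alone. In limma each variance is also drawn toward a trend over all genes tested.

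The uninjured and injured cords were compared only through the SOX9 libraries. TSS windows held 9.57% ± 3.85 (SD, n = 2) of coverage in uninjured cords and 8.66% ± 1.05 (SD, n = 2) at 1 d.p.i., a difference of 0.905 percentage points that is smaller than the spread (exact two-sided permutation test, p = 1, with 0.333 as the smallest possible). Without SOX9 F the difference was −1.82 percentage points. Of the 708 shared promoters, 640 (90.4%) were among the 1000 highest of SOX9 M at 1 d.p.i. and 598 (84.5%) among those of SOX9 F at 1 d.p.i., with 564 (79.7%) in both. Of all 21938 genes, 1000 are in each of these lists of 1 d.p.i. and 754 in both. The highest promoters of uninjured cords were thus mostly also high in cords of other, injured animals.

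The sequence under the highest coverage was read in 200 bp around the summit of each TSS window, from the genome on GRCm38. A hexamer of the SOX family, ACAATG or ACAAAG on either strand, stood in 109 of the 1000 windows that rank highest by the lower value (10.9%, 95% Wilson interval 9.12 to 13) and in 15.3% of all 20843 summit windows. The longer ACAATGG stood in 1.30% and 1.72%. The site of AP-1, TGACTCA, on either strand, stood in 1.00% and 2.38%. Letters of general promoter factors were found more often, CCAAT in 45.7% and 27.4% and GGGCGG, a GC box, in 64.9% and 36.4%, while CCGGAAG, the core of ETS factors, stood in 8.90% and 8.06%. The searches were of both strands, and ACAATGG contains ACAATG.

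Base composition differed between these sets, with a median GC content of 63.5% in the highest windows and 59.0% in all. Among windows below 50% GC the SOX hexamers stood in 18.4% of the highest (7 of 38) and 29.2% of all. From 50 to 60% GC they stood in 14.1% and 16.9%, from 60 to 70% in 9.19% and 7.79%, and from 70% on in 8.81% and 5.67%. In each of these ranges the 95% Wilson intervals of both shares overlapped, and the difference was not tested. A match of letters is a description of the window and not a binding site.

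A set of 4 sequences shows what stood under the summits of high promoters that do hold a SOX hexamer. They were chosen as the highest ranked with little repeated sequence and a summit window that ends before the start and touches no annotated exon, and they are printed from GRCm38 in the direction of the gene, with each hexamer or its reverse complement in capitals. The window of Pigz, a gene of GPI anchor synthesis, is chr16:31933052-31933251 on the plus strand, and its TSS window had 42.7 (M) and 70.9 (F) times the genome mean. The window of Camta1, a calmodulin-binding factor of neurons, is chr4:151861881-151862080 on the minus strand, with 39.4 (M) and 110.7 (F) times. The window of Jund is chr8:70698566-70698765 on the plus strand. The window of Dact3, a modulator of WNT signalling, is chr7:16875053-16875252 on the plus strand, with 33.5 (M) and 69.96 (F) times, and holds 2 hexamers. All 4 lie upstream of the annotated start, with the summit 699, 105, 283 and 164 bp before it.
Pigz: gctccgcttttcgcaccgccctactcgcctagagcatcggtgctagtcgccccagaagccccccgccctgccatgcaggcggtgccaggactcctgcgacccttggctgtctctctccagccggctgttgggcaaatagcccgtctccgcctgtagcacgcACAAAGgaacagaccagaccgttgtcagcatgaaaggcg
Camta1: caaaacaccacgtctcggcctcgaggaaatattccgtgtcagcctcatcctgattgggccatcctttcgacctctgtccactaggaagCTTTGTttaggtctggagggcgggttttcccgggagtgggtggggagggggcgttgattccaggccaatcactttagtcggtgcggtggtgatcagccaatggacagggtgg
Jund: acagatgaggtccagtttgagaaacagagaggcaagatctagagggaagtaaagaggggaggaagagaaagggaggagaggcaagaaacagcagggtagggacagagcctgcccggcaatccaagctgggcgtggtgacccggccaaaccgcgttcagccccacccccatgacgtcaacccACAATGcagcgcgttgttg
Dact3: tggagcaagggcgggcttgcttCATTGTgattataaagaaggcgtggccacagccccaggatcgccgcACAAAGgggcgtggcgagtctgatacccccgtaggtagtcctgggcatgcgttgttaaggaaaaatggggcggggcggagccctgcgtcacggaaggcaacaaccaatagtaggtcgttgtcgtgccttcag
In Control M and Control F the TSS windows had 53.3 and 20.4 times the genome mean at Pigz, 191 and 19.4 at Camta1, 79.0 and 147 at Jund and 101.2 and 72.7 at Dact3. These Control values rest on few fragments, with 1 (M) and 4 (F) fragment starts at Jund. One fragment in a window is worth 56.3 times the genome mean in Control M and 28.3 times in Control F. Most lone Control fragments also stand in SOX9 libraries, so the values are not read as an independent background at these promoters.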

How the data were processed

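SOX9 CUT&Tag was measured in 8 libraries, of which the 2 SOX9 and 2 Control libraries of uninjured cords are reported, with the 2 SOX9 libraries at 1 d.p.i. for comparison. The submitters' processing notes name Bowtie2 2.5.4 (mapping), Picard 3.4.0 (duplicates), SEACR 1.3 (peaks) and mm10. What the authors deposited is a coverage signal for each library, in whole numbers without scaling for depth, as 20283253 stretches of which 0 overlapped within a library, and the step that wrote it is not given in the sources used here.

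Coverage was summed over the TSS ±1 kb and the span of 21938 protein-coding genes (GENCODE on GRCm38) and divided by the mean of the library over the genome, so that a scaling for depth is built in. Each rise of the coverage was counted as a fragment start. Differences were tested on log2(ratio + 0.5) by limma 3.58.1 (R 4.3.3) with a mean-variance trend, for genes with a mean of at least 1 over the 4 libraries. Genes with a Benjamini-Hochberg adjusted p under 0.05 were counted. For shares of coverage an exact permutation test, two-sided, was used. Repeated windows have at least 20% of their 31-base words, taken every 10 bp, elsewhere in the genome. The limma step was tested on simulated data. At the deposited depths it passed most unchanged windows, and at equal depth it recovered changed ones with very few false calls.

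The M and F letters pair the libraries, since SOX9 and Control of the same letter come from the same nuclei, per the labels. Across 14114 windows the deviations of M from the group means correlated at r = 0.0177 between SOX9 and Control.

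Members and gene lists were chosen with earlier results of these data known. Named are the 20 highest TSS windows, the 10 highest gene spans and the 10 highest spans without the TSS window among genes of at least 10 kb, the 2 highest and the 1 lowest of each list, and Sox9, all by the lower of M and F. Ties at 0 were broken by chromosome and position, so a named gene with a lower value of 0 is not below others at 0. Windows and spans added after repeats were left out, and Olig2, Nfia, Slc1a2, Gfap, Vim, Col2a1, Acan, Mbp and the markers named singly, were chosen after their values were seen. The marker counts and sums cover every marker listed for a cell type. Alternatives were other windows, filters, pseudocounts and scalings, a block, thinning and leaving out libraries.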

Additional observations from a re-analysis of the deposited data

Results flagged for a closer look

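The share of coverage in TSS windows moved in opposite directions between SOX9 and Control in the sexes. SOX9 minus Control was −2.94 percentage points in M (6.84% and 9.79%) and 1.96 in F (12.3% and 10.3%). This difference between the sexes was not tested, since each value rests on 1 library, and SOX9 F had 7216730 fragments against 1891276 in SOX9 M. By fragment starts the shares were 7.00% (95% Wilson interval 6.96 to 7.03) in SOX9 M and 10.0% (9.62 to 10.4) in Control M, and 12.2% (12.2 to 12.2) in SOX9 F and 10.3% (10.1 to 10.6) in Control F, intervals that cover counting error only.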

How the results depend on the processing

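Alternatives that leave out repeated windows, leave out a SOX9 library or thin SOX9 F for the count above 2 times were chosen after seeing the data. TSS windows with SOX9 above Control (8283, limma) fell to 0 with SOX9 thinned to its Control and ran from 6037 to 11056 when 1 library was left out. Windows below (15) numbered 4 without a filter, 27 and 1 with pseudocounts of 0.1 and 5, 0 with trimmed mean scaling (0 unadjusted), 100 without trend, 176 with the replicate block, 0 when thinned (56 unadjusted) and 17 to 740 with 1 library left out (740 without Control M, 704 without Control F, 31 without SOX9 F). Gene spans above (2383) numbered 6099 without a filter, 0 with a pseudocount of 5 (2621 unadjusted), 6785 with trimmed mean scaling, 1453 with all 8 libraries, 0 with the replicate block (2610 unadjusted), 0 when thinned (307 unadjusted) and 1348 to 6605 with 1 library left out (1348 without SOX9 F, 5057 without Control M, 6605 without Control F). Spans below (8) numbered 22 without a filter, 0 with a pseudocount of 5 (99 unadjusted), 0 with trimmed mean scaling (2 unadjusted), 13 without trend, 28 with all 8 libraries, 0 with the block (18 unadjusted), 0 when thinned (281 unadjusted), 14 without the TSS window and 0 to 2270 with 1 library left out (1928 without Control M, 2270 without Control F, 0 without SOX9 M or SOX9 F, where 9 and 47 passed unadjusted). A fit with 1 library in a group assumes that it varies like the other group. With the block 8570 windows were above Control, and it moved no further count.

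The difference in TSS share ran from −3.21 to 2.23 percentage points between SOX9 and Control, reversed without SOX9 replicate 1 (M), and from −1.82 to 3.63 between uninjured and 1 d.p.i., reversed without SOX9 replicate 2 (F). With repeated windows left out, 9 of the 20 highest windows were the same genes. SOX hexamers stood in 17.4% of 300-bp windows at the start (26.3% of all) and in 9% of the 500 highest summits. Over the other settings run, 69.6% to 71.6% of the 1000 highest promoters and 69.9% to 73.4% of the 1000 highest spans were shared (73.1% and 78.2% of the 2000 highest, 72.0% and 71.2% of the 500 highest). Windows above 2 times the genome mean in both numbered 11571 with SOX9 F thinned and 11354 without repeated windows, and 12678 (M) and 14077 (F) in 1 library alone. Of 129 named windows, 88 were higher and 27 lower over TSS ±500 bp, and 12 were higher and 20 lower with SOX9 F thinned. From 11 to 13 of 20 lists had a median above that of all genes (11 in the report). The cause of each change was not tested, apart from thinning, which by construction lowers depth. Depth limits single genes in the Controls most of all.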

Other observations

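Base composition differed between the highest windows and all windows. Over all 20843 windows with coverage, the 200 bp around the summit had a median GC content of 59.0% with quartiles of 49.5% and 67.0%, and among the 1000 highest it was 63.5% with quartiles of 58.0% and 68.5%. CCAAT, the letters bound by NF-Y, stood in 56.9% of the highest windows from 50 to 60% GC, against 29.8% of all windows in that range, and in 46.8% against 29.1% from 60 to 70% GC.

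Zfp genes were the largest list after the receptors of smell, with 9 of 365 in the shared list of 708, which holds 3.23% of all genes. Zfp78, a zinc finger gene, had 40.3 (M) and 108 (F) times the genome mean and 0 in both Controls, and Zfp687 had 36.8 (M) and 86.1 (F) times and 0 (M) and 38.4 (F) in the Controls. Zfp185, on the X chromosome, had 0 (M) and 1.14 (F) times.

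These values are limited by the shallow Controls, by fragments that Controls share with SOX9 libraries, by 1 animal of each sex, and by bulk nuclei. Repeated windows describe families of copies. Only the first annotated start of each gene was used, and distal elements were not analysed here.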
